A study of Mus musculus with 4 samples.

Results

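The cytosolic ribosomal protein genes encode the proteins of the ribosome that works in the cytoplasm. They were taken as every gene whose symbol is Rpl or Rps with a number (and at most one of the letters a, x, y or l), Rplp0 to Rplp2, or Rpsa, without the ribosomal S6 kinases, and with a probe set that the platform annotation gives to that symbol alone. This left 45 of the 12393 genes measured, 24 of the large subunit and 21 of the small subunit. The pattern matched 72 symbols in all, and the other 27 appeared only on probe sets shared between several symbols. Rpl3, Rpl5, Rpl10, Rplp1, Rps27a and Rpl10l were among the genes without a probe set of their own and were not analysed here. The choice of members used no measured value, except that the brightest probe set on average over the arrays stood for each gene.

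The small ribosomal subunit reads the messenger RNA and the large subunit joins the amino acids, and each subunit is built from ribosomal RNA and a fixed set of proteins, most of them present once per ribosome. The genes of these proteins lie on many chromosomes, yet their messenger RNAs share a terminal oligopyrimidine (TOP) motif, an unbroken run of C and T that begins at the capped first base and through which mTORC1 and Larp1 control their translation. In the intestine, Myc downstream of Wnt signalling raises ribosome production in the dividing cells of the crypt, while villus cells have stopped dividing and are shed after a few days.

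Expression was measured, as normalized intensity per probe set, on 4 Affymetrix arrays of C57BL/6 mice aged 4 to 6 weeks, all from proximal intestinal epithelium. The stem group held 2 arrays of Lgr5(hi) stem cells, which were sorted by flow cytometry from animals labelled wild type. The enterocyte group held 2 arrays of villus cells that EDTA had released from animals in which Atoh1 had been knocked out conditionally in intestinal epithelium. The knockout was induced with tamoxifen (1 mg per day for 5 days, then 5 days of waiting), and the labels list this treatment for all 4 samples, the wild type included. Atoh1 encodes a transcription factor without which secretory cells do not form, and its loss was meant to leave enterocytes alone on the villus. Neither the driver of the knockout nor the reporter used for the sort is given in the sources used here, and the animals behind the replicates are not named. The titles call the samples biological replicates 1 and 2 of each group, but do not say whether they came from separate animals. The p-values therefore measure the spread between these samples, which may not be that between animals. Cell type, genotype and way of isolation change together between the groups and cannot be told apart.

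Array medians ran from 102.4 to 110.6 intensity units. Atoh1 was at log2 7.43 and 7.71 in stem cells and at 5.06 and 5.28 in enterocytes (adjusted p = 0.00423, limma), with no statement of which part of the gene was deleted. All 9 stem cell markers were lower and all 11 enterocyte markers higher in the enterocyte arrays. The stem arrays also carried Paneth and goblet cell markers: 7 of 9 were lower in enterocytes, and their summed intensity was 70130 and 88920 on those arrays against 1213 and 7171 in enterocytes. Of 12 lymphocyte markers 11 were higher in the enterocyte arrays, with sums of 682 and 949 in stem cells and 8877 and 11930 in enterocytes. Of 8 enteroendocrine and tuft cell markers 4 were lower and 2 higher. The enteroendocrine genes Chga, Chgb, Neurod1 and Neurog3 were lower, while the hormone gene Sct differed by 0.05 and did not pass. The tuft cell genes Dclk1 and Trpm5 were higher, by 3.64 and 2.19 on the log2 scale, and Pou2f3 did not pass. Of 10 stromal, muscle, endothelial and red cell markers 1 passed the threshold, as lower. The part of these other cells in the ribosomal protein differences was not tested, and in bulk RNA a change in the number of cells of a type and a change in RNA per cell cannot be told apart.

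The bases around the annotated start show which members carry a pyrimidine run near the place where a TOP motif would begin. Some of these runs lie wholly before or wholly after the annotated start. Promoter sequences from RefSeq (GRCm38.p6) were matched for 39 of the 45 members; Rpl7, Rpl8, Rps4l, Rps14, Rps20 and Rps29 had no entry. Each line below gives 30 bases 5′ to 3′ on the gene's strand, 10 before and 20 from the annotated start, with the longest run of C and T in capitals. The first group holds members with large falls and long runs, Rps6 (chr4:86857348-86857377, minus strand), Rpl14 (chr9:120571507-120571536, plus strand) and Rpl35 (chr2:39005112-39005141, minus strand).
Rps6: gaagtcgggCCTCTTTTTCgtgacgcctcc
Rpl14: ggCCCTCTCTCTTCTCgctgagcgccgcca
Rpl35: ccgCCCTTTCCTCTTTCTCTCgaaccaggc
The second group holds members with falls of like size and short runs in this window, Rps25 (chr9:44407704-44407733, plus strand), Rpsa (chr9:120127756-120127785, plus strand) and Rpl37 (chr15:5116603-5116632, plus strand).
Rps25: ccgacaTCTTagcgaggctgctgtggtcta
Rpsa: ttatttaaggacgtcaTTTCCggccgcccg
Rpl37: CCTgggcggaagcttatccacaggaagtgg
The third group shows a member near the middle of the family and the pair Rps27 and Rps27l, whose arrays did not separate: Rpl13a (chr7:45128726-45128755, minus strand), Rps27 (chr3:90213629-90213658, minus strand) and Rps27l (chr9:66946076-66946105, plus strand).
Rpl13a: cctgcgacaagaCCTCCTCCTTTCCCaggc
Rps27: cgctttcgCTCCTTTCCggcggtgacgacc
Rps27l: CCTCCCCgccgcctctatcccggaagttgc

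Most cytosolic ribosomal protein messages were lower in the villus cells than in the stem cells on the deposited scaling. Of the 45 genes 35 fell, 1 rose and 9 did not pass an adjusted p of 0.05 (limma over all genes), with a median difference, enterocyte minus stem, of -0.75 on the log2 scale. Among all genes 22.4% fell and 18.2% rose, and their median difference was -0.0026. Large subunit genes had 20 falls in 24 (median -0.79) and small subunit genes had 15 falls and 1 rise in 21 (median -0.75). The direction depended on the scaling. Under quantile normalization, and with array medians or reference genes set equal, the subunit medians ran from -0.97 to -0.53. Centring the arrays on their hybridisation controls, chosen after seeing the data, moved the medians to 0.28 and 0.32. It left 1 large and 3 small subunit genes lower, with 9 of each subunit higher. In that fit 77.4% of all genes were higher and 7.29% lower. The controls themselves did not shift alike, by -2.55 to -1.90 for the faintest and by -0.0521 to -0.0009 for the brightest. With 1 stem array left out limma called 0 genes (4675 and 4817 at an unadjusted p under 0.05, among them 30 and 33 members that were lower). When enterocyte replicate 1 was left out 11 large and 6 small subunit genes fell, and when replicate 2 was, 10 and 6 did. The medians moved less, from -0.81 to -0.74 for the large and from -0.80 to -0.65 for the small subunit when any array was left out.

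Most members had a high signal, so other genes above a signal floor were also counted. The floor was a mean log2 value of 7.719, the 10th percentile of the members. Of 5643 other genes at or above it, 32.8% fell and 29.3% rose, and their median difference was -0.07. They were not matched to the members in signal: their median was 9.41 in stem replicate 1, against 14.36 for the members. Both enterocyte arrays lay below both stem arrays in 40 of the 45 members, against 34.8% of all genes. The quartiles of the members' differences were -0.99 and -0.49. The value was also negative for each of the 41 members that are not named as like another ribosomal protein (Rpl3l, Rpl39l, Rps4l and Rps27l), although 6 of these did not pass the threshold.

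**Figure D1:**
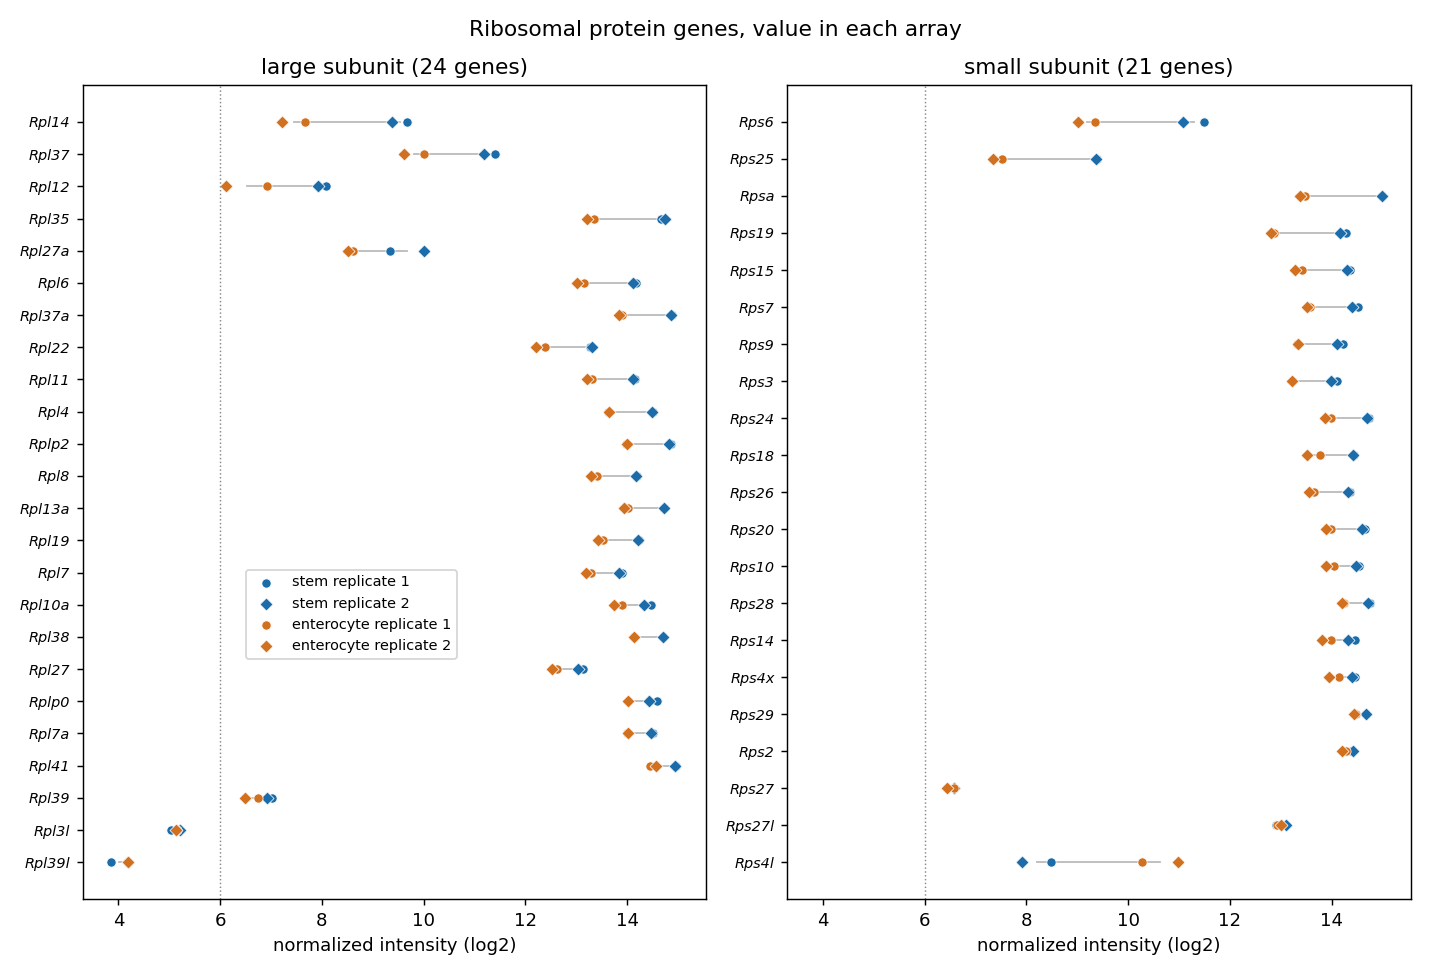
Normalized intensity (log2) of each ribosomal protein gene in the 2 stem arrays (blue) and the 2 enterocyte arrays (orange), with the large subunit on the left and the small subunit on the right; the grey line joins the group means and the dotted line marks log2 6, under which a gene was taken as dim. On the deposited scaling the orange symbols lie to the left of the blue ones in 40 of the 45 genes and to the right in Rps4l; centring on the hybridisation controls moves every enterocyte value up by 1.07 relative to stem.

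In the large subunit the largest fall was that of Rpl14, which was at log2 9.67 and 9.38 in stem cells and at 7.67 and 7.22 in the enterocyte arrays. The groups lay far apart compared with the gap between replicates, and the message was 4.24-fold lower (-2.08 ± 0.22 SE with n = 2 per group, adjusted p = 0.00916). Rpl37, a small zinc-binding protein, was at 11.40 and 11.19 against 10.01 and 9.62, a fall of 2.80-fold (-1.48 ± 0.18 SE, adjusted p = 0.0127). Rpl12, which lies at the base of the stalk, was at 8.08 and 7.93 in stem and at 6.92 and 6.12 in enterocyte arrays. Its enterocyte replicates stood 0.80 apart, the widest gap of any member in that group, and its fall of 2.79-fold only just passed (-1.48 ± 0.32 SE, adjusted p = 0.0433). Its call was lost in the fit that took the dimmest probe set of each gene (adjusted p = 0.0609). Rpl12 has 1 probe set, so its own values were the same in that fit.

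Rpl35, which sits beside the tunnel through which the new chain leaves, was at 14.66 and 14.75 in stem and at 13.35 and 13.21 in enterocyte arrays. This was a 2.68-fold fall (-1.42 ± 0.08 SE, adjusted p = 0.00392) with tight replicates. Of its 6 probe sets the 5 bright ones differed by -1.29 to -1.50 and each passed the threshold, and the dim one differed by -0.32 and did not. Rpl6 was at 14.17 and 14.11 against 13.15 and 13.02, a 2.07-fold fall (-1.05 ± 0.07 SE, adjusted p = 0.00514).

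The stalk binds elongation factors and is made of Rplp0 and paired copies of Rplp1 and Rplp2. Rplp0, often used as a reference gene in quantitative PCR, was at 14.58 and 14.44 in stem and at 14.02 and 14.01 in enterocyte arrays. Its fall was 1.41-fold (-0.49 ± 0.08 SE, adjusted p = 0.0199), one of the smaller falls of the subunit, and it lost its call with array medians set equal (-0.27, adjusted p = 0.0711). Rplp2 was at 14.86 and 14.82 against 13.98 and 14.01, a 1.80-fold fall (-0.85 ± 0.05 SE, adjusted p = 0.00452).

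Several large subunit proteins have known roles outside or beside the ribosome. Rpl11, which with Rpl5 binds and restrains Mdm2 when ribosome assembly fails, was at 14.16 and 14.11 in stem and at 13.31 and 13.22 in enterocyte arrays. It fell by 0.87 on the log2 scale (adjusted p = 0.00542). Rpl22, needed for the development of alpha-beta T cells in mice, was at 13.27 and 13.32 against 12.38 and 12.22, a 1.99-fold fall (adjusted p = 0.00658). Rpl13a, released from the ribosome in interferon-treated myeloid cells to silence certain messages, was at 14.73 and 14.72 against 14.02 and 13.95, a 1.68-fold fall (adjusted p = 0.00586). Rpl38, whose loss in mice disturbs the translation of Hox messages and the axial skeleton, was at 14.71 in both stem arrays and at 14.14 in both enterocyte arrays. That gave a 1.49-fold fall (-0.57 ± 0.05 SE, adjusted p = 0.00698). Rpl4, which lines the exit tunnel, was at 14.50 in both stem arrays and at 13.62 and 13.64 in the enterocyte arrays, a 1.83-fold fall (adjusted p = 0.00407).

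The other 8 large subunit genes that fell, named to complete the account, were Rpl37a, Rpl8, Rpl19, Rpl7, Rpl10a, Rpl27, Rpl7a and Rpl41. Their differences ran from -1.001 (Rpl37a) to -0.44 (Rpl41), and in each the groups did not overlap. With array medians set equal Rpl27, Rpl7a and Rpl41 did not pass (adjusted p from 0.0668 to 0.126), and with the replicate number as a block Rpl41 did not (adjusted p = 0.0538).

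The 4 large subunit genes that did not pass the threshold fell into different cases and, where not on the fixed list, were named after their values were seen. Rpl27a was at 9.34 and 10 in stem and at 8.61 and 8.51 in enterocyte arrays. Its groups did not overlap, its difference was -1.11 ± 0.27 SE, and the adjusted p was 0.0539. Rpl39, a very small protein of the exit tunnel, was at 7.02 and 6.93 against 6.75 and 6.49 (-0.36 ± 0.12 SE, adjusted p = 0.108). Rpl3l, a counterpart of Rpl3 made in heart and skeletal muscle, and Rpl39l, a counterpart of Rpl39 known from the testis, were dim (a mean log2 value under 6 in both groups), at 5.03 to 5.20 and at 3.86 to 4.18. Their groups overlapped and their adjusted p values were 0.817 and 0.430.

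In the small subunit the largest fall was that of Rps6, the protein that S6 kinases phosphorylate when mTORC1 is active. Rps6 was at 11.50 and 11.09 in stem cells and at 9.34 and 9.02 in the enterocyte arrays. Stem values stood well above enterocyte values, a fall of 4.32-fold (-2.11 ± 0.21 SE, adjusted p = 0.00858). A further Rps6 probe set was dim, at 5.35 to 5.53, and differed by 0.0012, so the fall rests on 1 probe set. Rps25, which some viral internal ribosome entry sites require, was at 9.38 and 9.37 against 7.51 and 7.35, a fall of 3.85-fold (-1.94 ± 0.08 SE, adjusted p = 0.00313).

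Rpsa, also known as the laminin receptor, was at 14.98 and 14.99 in stem and at 13.47 and 13.37 in enterocyte arrays. It had the smallest adjusted p of all members (0.00308), with a fall of 2.96-fold (-1.56 ± 0.07 SE). Rps19, mutated in Diamond-Blackfan anaemia, was at 14.29 and 14.16 against 12.87 and 12.81, a fall of 2.60-fold (-1.38 ± 0.08 SE, adjusted p = 0.00376). Rps15 was at 14.36 and 14.31 against 13.41 and 13.27, a fall of 1.99-fold (-0.99 ± 0.08 SE, adjusted p = 0.0059). These 5 genes were the largest falls of the subunit, and in each the replicates of a group stood closer together than the groups did.

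Rps3, which lines the channel where the message enters and also takes part in DNA repair, was at 14.10 and 13.98 in stem and at 13.23 and 13.22 in enterocyte arrays, a 1.76-fold fall (adjusted p = 0.00655). Rps26, which touches the message upstream of the start codon, was at 14.36 and 14.33 against 13.65 and 13.55, a 1.68-fold fall (adjusted p = 0.00693). Rps14, whose partial loss causes anaemia in a human myelodysplastic syndrome, was at 14.46 and 14.32 against 13.99 and 13.81. Its fall of 1.40-fold was the smallest of the subunit that passed (-0.49 ± 0.10 SE, adjusted p = 0.0379), and it did not pass with array medians set equal (adjusted p = 0.0953). The 7 other small subunit genes that fell, Rps7, Rps9, Rps24, Rps18, Rps20, Rps10 and Rps28, differed by -0.91 (Rps7) to -0.51 (Rps28). Rps10 and Rps28 did not pass with array medians set equal (adjusted p of 0.0540 and 0.0548).

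Rps4x, Rps29, Rps2, Rps27 and Rps27l did not pass the threshold. Rps29 and Rps2 were named here after their values were seen. Rps4x was at 14.46 and 14.41 in stem and at 14.15 and 13.95 in enterocyte arrays (-0.39 ± 0.09 SE, adjusted p = 0.0554). Rps29, a zinc-binding protein, was at 14.68 in both stem arrays and at 14.48 and 14.44 in the enterocyte arrays (-0.22 ± 0.05 SE, adjusted p = 0.0554), and its 2 further probe sets differed by -0.54 and -0.47, which passed. Rps2 was at 14.38 and 14.41 against 14.28 and 14.21 (-0.16 ± 0.06 SE, adjusted p = 0.141). In these 3 genes the groups stayed apart by small distances, whereas in Rps27 the values, 6.58 and 6.57 against 6.57 and 6.43, touched (adjusted p = 0.505).

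**Figure D2:**
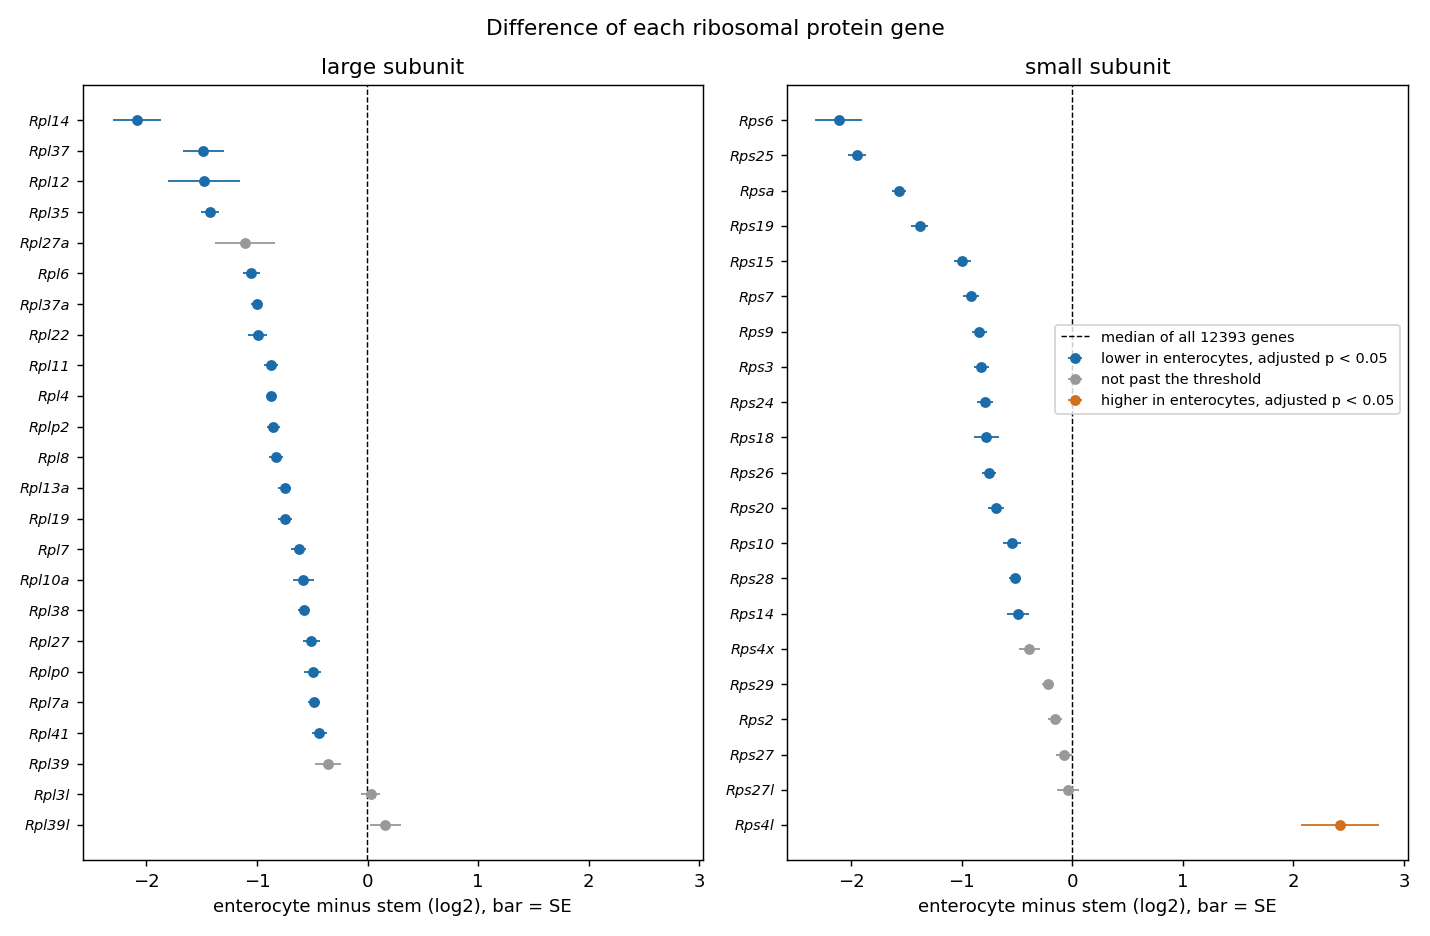
Difference between enterocyte and stem arrays (log2, on the deposited scaling) for each gene of the large subunit (left) and of the small subunit (right), with bars for limma's standard error, n = 2 arrays per group. Of the 45 genes 35 lie below 0 past the threshold (blue), 9 did not pass (grey) and Rps4l, at 2.42, rose (orange); the dashed line is the median of all genes, which centring on the hybridisation controls moves from about 0 to 1.07.

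Rps4l and Rps27l, each named as like another small subunit gene, did not follow the rest. Rps4l was at 8.48 and 7.92 in stem cells and at 10.27 and 10.97 in the enterocyte arrays. Enterocyte values lay above stem values by more than the gap between replicates, a 5.36-fold rise (2.42 ± 0.35 SE, adjusted p = 0.0178). Its namesake Rps4x differed the other way, by -0.39, without passing. The rise of Rps4l held its call under each of the scalings tried, from 2.26 to 3.49, and lost it when any array was left out (2.07 to 2.77, adjusted p 0.0898 to 0.146).

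Rps27l, a target of p53 in human and mouse cells, was at 12.90 and 13.10 in stem and at 12.93 and 12.99 in enterocyte arrays, and the groups overlapped (-0.04 ± 0.10 SE, adjusted p = 0.786). Its 3 probe sets differed by -0.04, 0.07 and 0.22, and none passed the threshold.

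Differences among members do not move when whole arrays are centred. The arrays were therefore also centred on their median value over the 45 members. That value was 14.36 and 14.31 in stem and 13.41 and 13.33 in enterocyte arrays. It fell by more than the median difference of -0.75. After this centring the large and small subunit medians were thus 0.17 and 0.21, so 0 does not mark the middle of the family. In this fit 7 members were lower past the threshold: Rps6 (-1.15), Rpl14 (-1.12), Rps25 (-0.98), Rpsa (-0.60), Rpl37 (-0.52), Rpl35 (-0.46) and Rps19 (-0.42). A further 19 were higher, 10 of the large and 9 of the small subunit. In the same fit 77% of all genes were higher and 9.25% lower. The largest of the 19 above the signal floor were Rps4l (3.38), Rps27l (0.92), Rps2 (0.81), Rps29 (0.74), Rps4x (0.58) and Rpl41 (0.53). Rplp0 was higher by 0.47 (adjusted p = 0.00932). Each value rests on the brightest probe set of the gene. Before this centring Rpl41 differed by -0.44 on that probe set and by -0.52, -1.81 and -2.39 on its others. Signal level differed too: Rps6, Rpl14, Rps25 and Rpl37 had mean log2 values of 8.40 to 10.56, and Rpsa, Rpl35 and Rps19 of 13.53 to 14.20. Rps6, Rpl14, Rps25 and Rpsa were the 4 members that stayed lower under the hybridisation control centring as well, at -1.04, -1.01, -0.87 and -0.49. In that fit every gene had the same standard error, 0.24, and Rpsa only just passed (adjusted p = 0.0476).

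**Figure D3:**
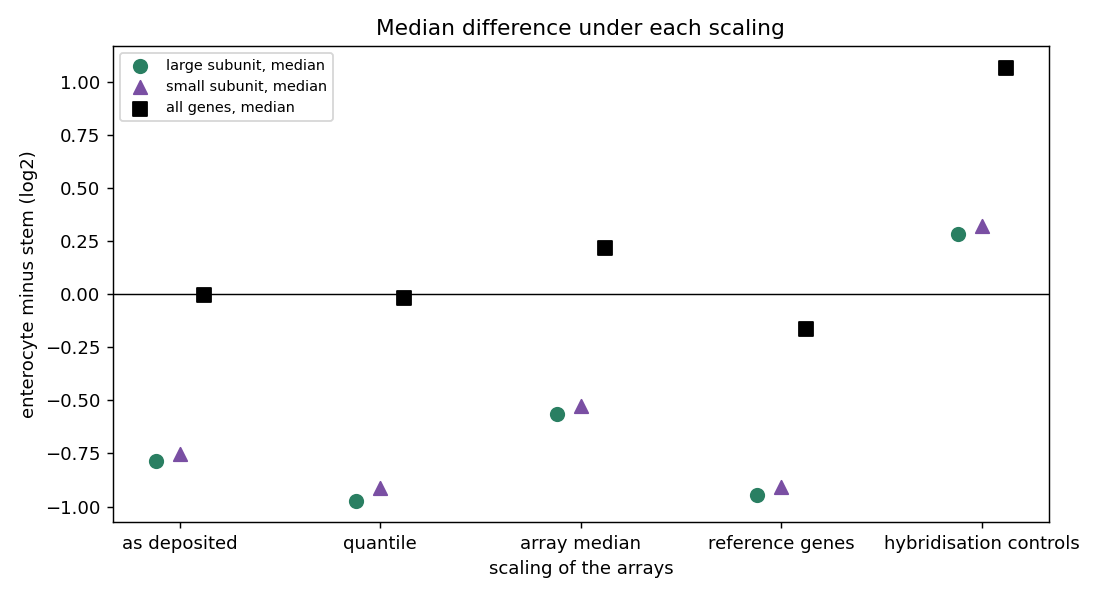
Median difference between enterocyte and stem arrays (log2) of the large subunit (circles), the small subunit (triangles) and all genes (squares), for the deposited values, quantile normalization, and centring on the array median, on 8 reference genes or on 18 hybridisation control probe sets. Both subunit medians lie below that of all genes under each scaling, and they lie above 0 under the hybridisation control centring alone, at 0.28 and 0.32.

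The hybridisation controls, bacterial and phage transcripts added at graded amounts, differed between the groups. The 6 BioB probe sets, the faintest of the controls, differed by -2.55 to -1.90, the BioC probe sets by -0.80 to -0.67, the BioD probe sets by -0.71 to -0.58 and the Cre probe sets, the brightest, by -0.05 to -0.00. The controls thus did not shift alike, and their mean shift of -1.07 is no single scaling factor. Over all genes 2257 rose and 2779 fell on the deposited values, 3574 and 2458 with array medians set equal, and 9596 and 904 with the controls set equal. These centrings moved the median difference of all genes to 0.22 and 1.07, and centring on the reference genes moved it to -0.16. The signal along transcripts differed too. The 3′ minus 5′ difference in signal was 2.06 and 2.10 for actin in stem cells against 0.56 and 0.50 in enterocytes, and 1.70 and 1.92 against 0.15 and 0.17 for Gapdh. The poly-A controls, a further set of added transcripts, had a median difference of 0.04 over 24 probe sets. Their 3′ probe sets differed by -0.80 to -0.21 and their 5′ probe sets by 0.08 to 1.88. The part of any of these in the members' differences was not tested.

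The falls lay at high and at middle signal. Among the 31 members with a mean log2 value of at least 13, 28 fell and the median difference was -0.75. Of the 12 below 13 and not dim, 7 fell, 1 rose, and the median was -1.05. Beside these counts, 22.4% of all genes fell and 18.2% rose. Of the other genes above the signal floor 32.8% fell and 29.3% rose, and their share at each of these signal levels was not counted. Among the 43 members that were not dim, level and difference correlated across genes at r = 0.080 (Spearman 0.317), and without Rps4l at 0.353 (Spearman 0.388), which describes these probe sets only.

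**Figure D4:**
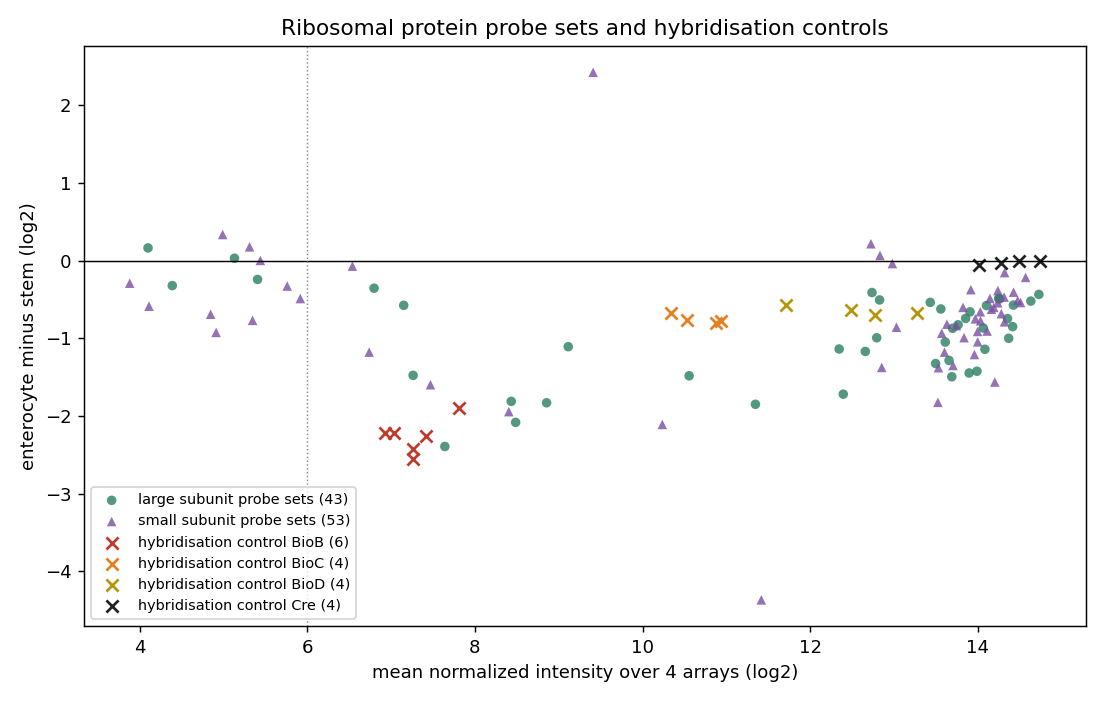
Each of the 96 probe sets of the ribosomal protein genes (circles, large subunit; triangles, small subunit) and of the hybridisation controls (crosses), by mean normalized intensity over the 4 arrays (log2) and by difference between enterocyte and stem arrays (log2, deposited scaling). Most ribosomal probe sets above log2 13 lie below 0, with Cre near 0; BioB lies at -2.55 to -1.90, and the lowest triangle is an Rps9 probe set with 1 low enterocyte array; centring on the controls would move every ribosomal probe set up by 1.07.

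Ribosomal protein genes have many near-identical processed copies in the genome, so signal of a copy and of the gene itself cannot always be told apart. Of the probe sets that stood for the 45 genes, 15 had a suffix that marks possible cross-hybridisation (_s_at or _x_at). In all, the members had 96 probe sets of their own, of which 72 fell and 1 rose in a fit over all probe sets, where 19.6% fell. Of the 83 that were not dim, 69 fell. For the 22 members with several probe sets, all of them fell in 9, some fell and the others did not pass in 10, and none passed in 3. The size varied more than the direction, in examples picked after their values were seen. Rpl41, the smallest ribosomal protein, had probe sets at -0.44, -0.52, -1.81 and -2.39, and Rpl13a had -0.66, -0.75, -1.14 and -1.85. In both genes the 2 brightest probe sets gave the smaller differences. Rps15 had -0.99 and -1.83. A probe set of Rps9 was at 13.49, 13.71 and 12.37 and then at 6.09 in enterocyte replicate 2, a gap of 6.28 that no other member probe set came near (next 0.80). It was not the one that stood for Rps9.

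The 102 probe sets that the annotation shares between a member symbol and others carry no gene name here. In a fit with them included, where 19.9% of probe sets fell, 89 of the 102 fell, 1 rose and 12 did not pass, with a median of -0.88. By subunit, 62 of 73 fell for large subunit symbols and 27 of 29 for small subunit symbols. These probe sets were not used to choose the 45 genes, though many may read the same transcripts. Rps3a1, which the symbol pattern leaves out and which was added after its values were seen, was at 14.36 and 14.29 against 13.89 and 13.84 and fell by 0.46 on the log2 scale (adjusted p = 0.0147).

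A run of at least 8 pyrimidines in the 30 bases shown above occurred in 16 of the 39 members with a promoter (41.0%), against 13% of 27025 genes of the RefSeq table. The share was 40.9% for the large and 41.2% for the small subunit. It was 41.9% among 31 members that fell and 37.5% among the 8 that did not, so the shares lay close together. The window and the run length were set after some of these sequences had been seen, the position of the cap was not measured, and TOP motifs can be shorter than 8. In the lines above Rps6, Rpl14 and Rpl35 have runs of 10, 14 and 18 bases, Rps25, Rpsa and Rpl37 have 4, 5 and 3, and Rps27, which did not separate, has 9.

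Motifs were counted in the whole 300 bases (250 before and 50 after the start, both strands). CCGGAAG, a site of the ETS factors that include Gabpa, was in 51.3% of the 39 member promoters against 9.93% of all. GGGCGG, the Sp1 box, was in 53.8% against 38.2%, and AAGATGG, the core of a Yy1 site, was in 15.4% against 7.28%. The first motif ends in the letters with which the last begins, so that matches of these can overlap. Among the 31 members that fell, CCGGAAG was in 48.4%, and among the other 8 in 62.5%. A match describes the letters and not a bound site.

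Genes that work with the ribosome were grouped by role, in lists set down with earlier results of these data known. Of 15 chaperones, importins and assembly factors of ribosomal proteins 11 fell, with a median of -1.50. Of all genes 22.4% fell, and of the other genes above the signal floor 32.8% did. The largest falls were those of Rpf2 (-2.10 ± 0.19 SE), which with Rrs1 brings Rpl5, Rpl11 and their RNA into the growing large subunit, Tsr2 (-1.998 ± 0.15 SE), the chaperone of Rps26, and the nucleosome assembly protein Nap1l1 (-1.84 ± 0.11 SE). Tsr2 was at 8.53 and 8.28 in stem and at 6.53 and 6.29 in enterocyte arrays. Rps26 itself had fallen by 0.75 on the log2 scale.

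Of 15 other messages with a known TOP motif 11 fell, with a median of -0.82, beside the same 22.4% and 32.8%. The largest falls were those of Hnrnpa1, an RNA-binding splicing factor (-1.95), Nap1l1 (-1.84) and the nucleolar chaperone Npm1 (-1.81). The elongation factor messages Eef1a1 and Eef2, also of this kind, differed by -0.19 and -0.31, and Tpt1 by -0.02, and none of these 3 passed.

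Of 11 elongation factors and ribosome-bound proteins 5 fell, with a median of -0.51. This count was not far above the 32.8% that fell among the other genes above the signal floor, and 22.4% of all genes fell. Eef2k and Habp4 of this list lay under that floor. Eef1d, a subunit of the exchange factor that recharges Eef1a1, fell by 1.88 on the log2 scale (adjusted p = 0.00261), Serbp1, which binds idle ribosomes, by 1.38 and Eif5a by 0.87. Of 3 ribosomal proteins whose symbols the pattern does not match, Rpl22l1, a close relative of Rpl22, fell by 0.83 (adjusted p = 0.00777), next to 0.99 for Rpl22. Fau, which encodes Rps30 fused to a ubiquitin-like protein, differed by -0.08 and Rpl7l1 by -0.29, and neither passed.

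Among 14 regulators of ribosomal protein production 6 fell and 1 rose, with a median of -0.40. Among the other genes above the signal floor 32.8% fell and 29.3% rose, and among all genes 22.4% and 18.2% did. Mlst8, Mycn and Rps6kb2 of this list lay under that floor. Myc, which drives transcription of ribosome genes, was at 10.56 and 10.43 in stem and at 8.71 and 8.33 in enterocyte arrays, a fall of 1.97 on the log2 scale (adjusted p = 0.00649). Larp1, which binds the TOP motif when mTORC1 is off, fell by 1.28, and Tsc1, an inhibitor of mTORC1, fell by 1.03. Rheb, the small GTPase that activates mTORC1, rose by 0.49 (adjusted p = 0.0215). Yy1 and Gabpa differed by -0.03 and 0.37 and did not pass.

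Of 6 genes listed for the p53 response to faulty ribosome assembly, regulators of p53 among them, 2 rose and 2 fell. These shares were near the 29.3% and 32.8% of the other genes above the signal floor, and among all genes 18.2% rose and 22.4% fell. Bbc3 and Cdkn2a of this list lay under that floor, and Cdkn2a was dim. Cdkn1a, an inhibitor of the cell cycle that also marks differentiated villus cells, was at 9.88 and 9.83 in stem and at 12.15 and 12.01 in enterocyte arrays, a rise of 2.22 (adjusted p = 0.00265). Mdm2 rose by 0.43 (adjusted p = 0.0482), which only just passed, while Mdm4 fell by 1.17 and Bbc3 by 0.56.

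The mitochondrial ribosome has its own proteins, which are nuclear genes of other descent. Of 74 mitochondrial ribosomal protein genes 36 fell and 8 rose, where 22.4% and 18.2% of all genes did. Cytosolic members thus had 35 falls in 45 and a median of -0.75 where the mitochondrial set had falls in 48.6% and a median of -0.36, and the difference between the sets was not tested. Of 8 reference genes outside translation 3 rose (Pgk1 by 0.82, Ywhaz by 0.56, Actb by 0.54) and 1 fell (Polr2a, -1.47).

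**Figure D5:**
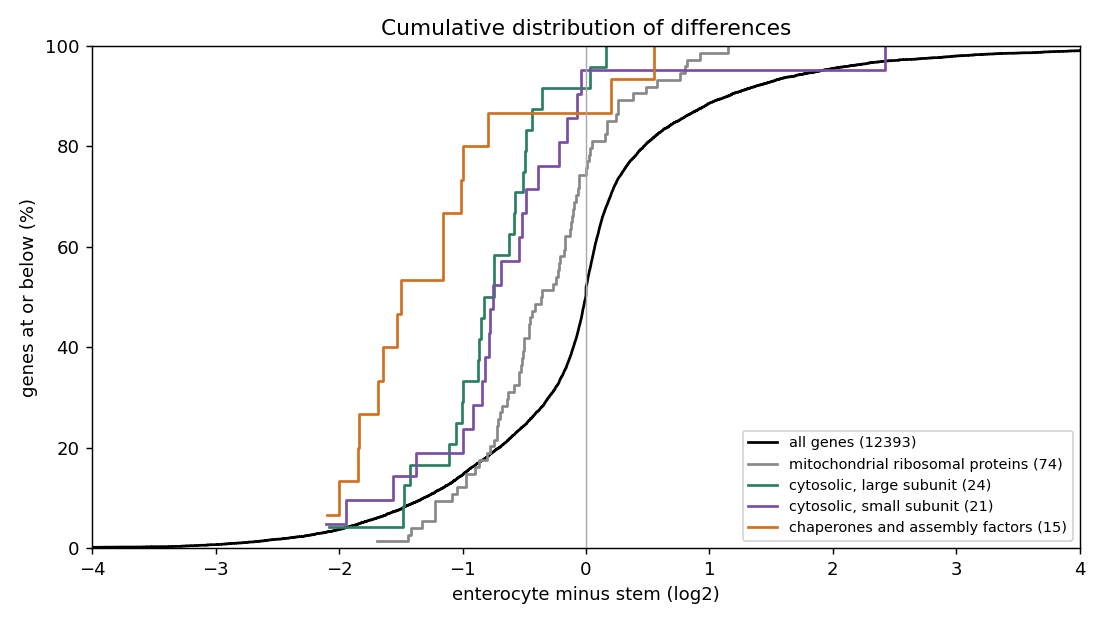
Cumulative share of genes (%) at or below each difference between enterocyte and stem arrays (log2, deposited scaling), for all genes, mitochondrial ribosomal proteins, the cytosolic large and small subunit genes, and ribosomal protein chaperones and assembly factors. Both cytosolic curves rise steeply between -1 and -0.4 to the left of the mitochondrial curve, with medians of -0.79 and -0.75 against -0.36, and the chaperone curve lies further left at -1.50; centring on the hybridisation controls would move all curves right by 1.07.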

How the data were processed

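RNA of 2 stem and 2 enterocyte samples was hybridised to Affymetrix mouse arrays after labelling from 100 ng total RNA, per the labels' protocols. The authors deposited normalized, linear intensity values (7.93 to 41703.8). The submitters' processing notes name RMA without a version, and the scaling between arrays is not stated there. Depth does not apply to arrays, and their number limits the precision. The planned tests assumed log2 values and provided for linear ones, so the deposited values were turned to log2 without a pseudocount. Of 22690 probe sets the annotation listed 21084, gave 1 symbol to 20380 and several to 691. Entrez identifiers of 20351 matched the RefSeq gene table (GRCm38.p6), with 0 symbols updated. No column was without a sample (0 columns).

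The probe set with the highest mean stood for each of 12393 genes. The groups were compared by limma 3.58.1 (lmFit, eBayes; R 4.3.3) in a two-sided test with 2 residual and 1.23 prior degrees of freedom. P-values were adjusted over all genes after Benjamini and Hochberg and called at 0.05. The script was tested on simulated data. Errors are limma's SE of the log2 difference.

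The members, lists, tests and alternatives were chosen with earlier results of these data known. Named genes were, per subunit, the up to 5 largest changes past the threshold in each direction, a fixed list of members and paralogs, and up to 3 per direction in each list of partner genes; other names are marked. No gene list was tested as a set. Alternatives covered the probe set choice, the filter on dim genes, scaling, an offset of 16, the variance prior, the replicate block and leaving out each array; the hybridisation control centring and the count of shared probe sets were chosen after seeing the data. Deviations of same-numbered samples from their group means correlated at 0.0504 across genes, so the numbers were not taken as pairs.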

Additional observations from a re-analysis of the deposited data

How the results depend on the processing

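The medians of the large and small subunit were -0.97 and -0.91 under quantile normalization, -0.56 and -0.53 with array medians set equal, -0.95 and -0.91 with 8 reference genes set equal, and 0.28 and 0.32 with the hybridisation controls set equal, which reversed them. With the lowest-mean probe set the small subunit median was -0.49, and without _s_at and _x_at probe sets -0.87. With array medians set equal 17 large and 12 small subunit members were lower: Rpl27, Rpl41, Rpl7a, Rplp0, Rps10, Rps14 and Rps28 lost their calls (adjusted p from 0.0540 to 0.126) and Rpl27a gained one. The lowest-mean probe set also gave 17 and 12, without Rpl12, Rpl35, Rpl7, Rps6, Rps14, Rps20 and Rps24 and with Rps29. Rpl12 has 1 probe set, so its own values did not change there. Rps9 lost its call with the mean over probe sets, and Rps20 without _s_at and _x_at probe sets. Genes called over the whole array were 3574 higher with array medians set equal, and 9596 higher and 904 lower with the controls set equal. In the latter setting 1 large and 3 small subunit members were lower and 9 of each higher. With the arrays centred on the members' median value in each array, 3 large and 4 small subunit members were lower and 10 and 9 higher. The large and small subunit medians were 0.17 and 0.21 in that fit, so these counts do not place members within the family. Leaving out 1 array gave 0 to 663 genes higher and 0 to 1058 lower, 0 to 11 large and 0 to 6 small subunit members lower, and 0 small subunit members higher; 4675 and 4817 genes had an unadjusted p under 0.05 without stem replicate 1 and 2. The small subunit median then ran from -0.80 to -0.65. Without dim genes Rpl3l and Rpl39l had no value, and without _s_at and _x_at probe sets 2 large and 3 small subunit members had none. A lone array of a group is assumed there to vary like the other group.

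Centring on the controls and on the members' median turned the sign of Rpl11 (0.20 and 0.090), Rpl13a (0.32 and 0.21), Rpl38 (0.50 and 0.39), Rpl39 (0.71 and 0.61), Rpl4 (0.20 and 0.093), Rplp0 (0.58 and 0.47), Rplp2 (0.22 and 0.11), Rps14 (0.58 and 0.47), Rps26 (0.32 and 0.21), Rps27 (0.999 and 0.89), Rps27l (1.03 and 0.92), Rps3 (0.25 and 0.14) and Rps4x (0.68 and 0.58). Centring on the controls alone turned Rpl22 (0.077), Rpl6 (0.022) and Rps15 (0.078). These turns follow from the size of the shift, and its cause was not tested. Rpl11, Rpl4, Rplp2 and Rps3 turned under the members' median although each had fallen by more than the median member difference of -0.75. Members near 0 or with a dim second probe set also turned: Rpl3l (-0.040 under quantile normalization, -0.13 with reference genes, -0.059 to 0.12 when 1 array was left out), Rps27 (0.079 under quantile normalization, 0.15 with array medians), Rps27l (0.081 with the mean and 0.22 with the lowest of its probe sets, 0.22 without _s_at and _x_at, 0.18 with array medians, -0.14 to 0.064 when 1 array was left out), Rps4x (0.33) and Rps6 (0.0012) with the lowest-mean probe set. The replicate block gave 19 large and 15 small subunit members lower (2010 genes higher, 2557 lower); Rpl41 lost its call (adjusted p = 0.0538). No paired reading was made, since the numbers did not pair the samples.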
